A study of Homo sapiens with 13 samples.

Results

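Bivalent H3K4me3 regions of human embryonic stem cells that had no H3K4me3 peak after deletion of ZNF263 are described here. They were chosen by 4 deposited peak lists: a WT H3K4me3 peak had to overlap a WT H3K27me3 peak by at least 1 bp, and to overlap neither a WT H3K27ac peak nor a KO H3K4me3 peak. Of the 28660 WT H3K4me3 peaks, 440 met this rule. They are called lost bivalent peaks, where lost means that no KO H3K4me3 peak overlapped them. They were split by the KO H3K27me3 list: 118 overlapped no KO H3K27me3 peak and 322 overlapped one. The other 7800 WT H3K4me3 peaks with H3K27me3 and without H3K27ac overlapped a KO H3K4me3 peak and are called kept bivalent peaks.

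All libraries came from H1 cells, also named WA01, an established line of human embryonic stem cells. KO cells were the line 1-10, labelled as homozygous for the ZNF263 knockout, which was made with Cas9, and WT cells were H1 labelled WT. A further KO sample expressed ZNF263 with a FLAG tag from an added copy, and its FLAG ChIP gave the peaks called FLAG peaks here. Only this 1 knockout line was profiled, with 1 ChIP library for each histone mark and genotype, so differences between KO and WT cells have no replicate check and were not tested. The 6 histone libraries of KO and WT cells and the FLAG library gave 7 peak lists, from which all values were taken. The sources used here do not say whether reads of 2 further WT libraries, made against endogenous ZNF263 and labelled with the same list, went into the FLAG peaks.

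H3K4me3 is deposited by trithorax-group (COMPASS) methyltransferases and sits at CpG-rich promoters. H3K27me3 is deposited by Polycomb repressive complex PRC2 and marks genes held silent. In embryonic stem cells both marks lie together at many promoters of developmental regulators, a state called bivalent, and a bivalent promoter can resolve in differentiation towards either mark. H3K27ac marks active promoters and enhancers and cannot sit on the same lysine as H3K27me3. ZNF263 is a C2H2 zinc finger transcription factor.

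Each peak carries the authors' score from peak calling, which was used only to describe and class peaks within a list. No source used here states its scale, and scores reach a ceiling near 3100. The lists hold no read counts, so depth is unknown and a missing peak may lie just under the caller's threshold. The KO lists were shorter than the WT lists for H3K4me3 (27126 and 28660 peaks) and for H3K27me3 (10375 and 11906 peaks). Coordinates are hg19, counted from 1. No gene was assigned to a region because no hg19 annotation was used here. Intervals are 95% intervals, by Wilson's method for shares and Newcombe's for differences of shares, and they cover the counting of peaks only.

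Loss of the H3K4me3 peak was rarer in bivalent chromatin than over the whole list. Of the 8240 WT H3K4me3 peaks with H3K27me3 and without H3K27ac, 5.34% were lost, against 12.3% of all WT H3K4me3 peaks. Because these shares use the lists that chose the regions, they are a description. They also do not take the WT H3K4me3 score into account. Within classes of that score, given below, bivalent peaks were lost more often than peaks with H3K27ac and without H3K27me3 in every class below 3100. The intervals of these 2 kinds of peak overlapped in each of those classes except 75 to 100. Against H3K4me3 peaks with neither other mark the direction changed between classes. The mirror class was smaller: of 7568 KO H3K4me3 peaks with KO H3K27me3 and without KO H3K27ac, 122 (1.61%) overlapped no WT H3K4me3 peak. The number rests on weak peaks and on how peaks were split: the upper 50% of the WT lists by score left 1 lost bivalent peak in place of 440, and joining peaks of a list up to 3 kb apart left 270. It also rests on list length: WT and KO lists of equal length left 320. The mirror count was not made with lists of equal length, so the part of list length in its contrast with the 440 was not tested.

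Lost bivalent peaks were weak and narrow in WT cells. Their WT H3K4me3 score had a median of 84.0 (quartiles 62.3 and 128), against 2580 (888 and 3100) for kept bivalent peaks. Scores under 100 were found in 280 of the 440 (63.6%), against 230 of 7800 kept peaks (2.95%), and 95 lost peaks had scores under 60, where the list begins at 50. Their median width was 1400.5 bp, against 2560 bp for kept peaks. Their H3K27me3 was not weak by median: the overlapping WT H3K27me3 peak had a median score of 1019, against 1095 at kept peaks. The lower quartile of this score was 128 at lost peaks and 245 at kept peaks. Lost peaks without KO H3K27me3 lay in weak WT H3K27me3 peaks, with a median score of 91.2. Just inside the rule, the lost peak nearest to a KO H3K4me3 peak lay 30 bp from it, at chr19:57828195-57830431, and the next ones 52 bp away at chr10:103046814-103048229 and 53 bp away at chr14:92719258-92720568. Just outside it, the kept peaks with the smallest overlaps shared 31 bp with a KO peak at chr10:8101624-8103321, 100 bp at chr15:69411512-69413261 and 125 bp at chr1:21053982-21055621.

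The share of peaks lost fell with the WT score in the 3 mark classes compared. Among peaks with H3K27me3 and without H3K27ac it was 58.4% at scores of 50 to 75, 50.4% at 75 to 100, 21.6% at 100 to 200, 4.31% at 200 to 500, 1.42% (0.792 to 2.52) at 500 to 1000 and 0.349% at 1000 to 3100. H3K4me3 peaks with neither other mark gave 64.7%, 46.4%, 24.6%, 4.60%, 3.44% (2.13 to 5.52) and 0.341% in the same classes. Peaks with H3K27ac and without H3K27me3 gave 52.9%, 39.8%, 17.4%, 2.63%, 0.565% and 0.287%. None of the 3414 bivalent peaks at 3100 or more was lost.

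**Figure D1:**
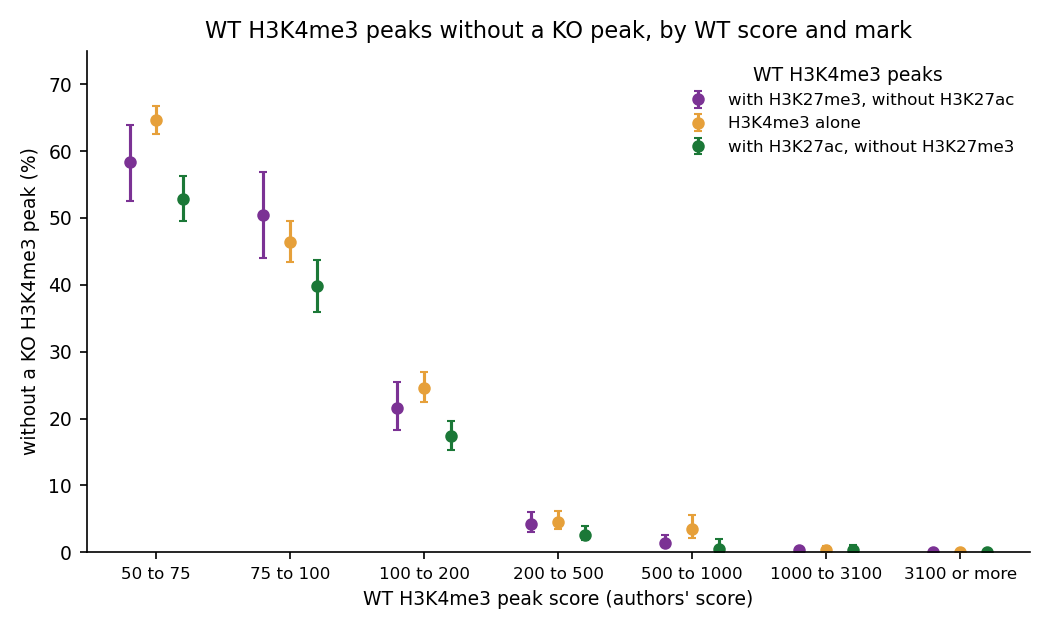
Share of WT H3K4me3 peaks without an overlapping KO H3K4me3 peak (y axis, percent) by class of the authors' WT H3K4me3 score (x axis), for peaks with H3K27me3 and without H3K27ac (purple), H3K4me3 alone (orange) and H3K27ac without H3K27me3 (green); bars are Wilson 95% intervals. In each colour the share falls along the score classes, and for the purple points it runs 58.4% at scores of 50 to 75 and 4.31% at 200 to 500.

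The 2 classes of lost peaks sat in different Polycomb settings. The 118 without KO H3K27me3 lay in small, weak WT H3K27me3 peaks, with a median score of 91.2 (quartiles 57.4 and 206) and a median width of 2072 bp. The 322 with KO H3K27me3 lay in strong, wide ones, with a median score of 3100 (445 and 3100) and a median width of 9121 bp. In the class without KO H3K27me3, 2 of 118 (1.69%) lay in an H3K27me3 peak at 3100 or more, against 170 of 322 (52.8%) in the class with it. The WT H3K4me3 scores were alike by median, 90.4 and 82.7, but not in their upper range, where the highest was 2687 in the class without KO H3K27me3 and 414 in the class with it. The contrast in WT H3K27me3 score was not particular to lost peaks. Among kept bivalent peaks, KO H3K27me3 was present at 584 of 1209 (48.3%) with a WT H3K27me3 score up to 128. At 3100 or more it was present at 2562 of 2568 kept peaks (99.8%).

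**Figure D2:**
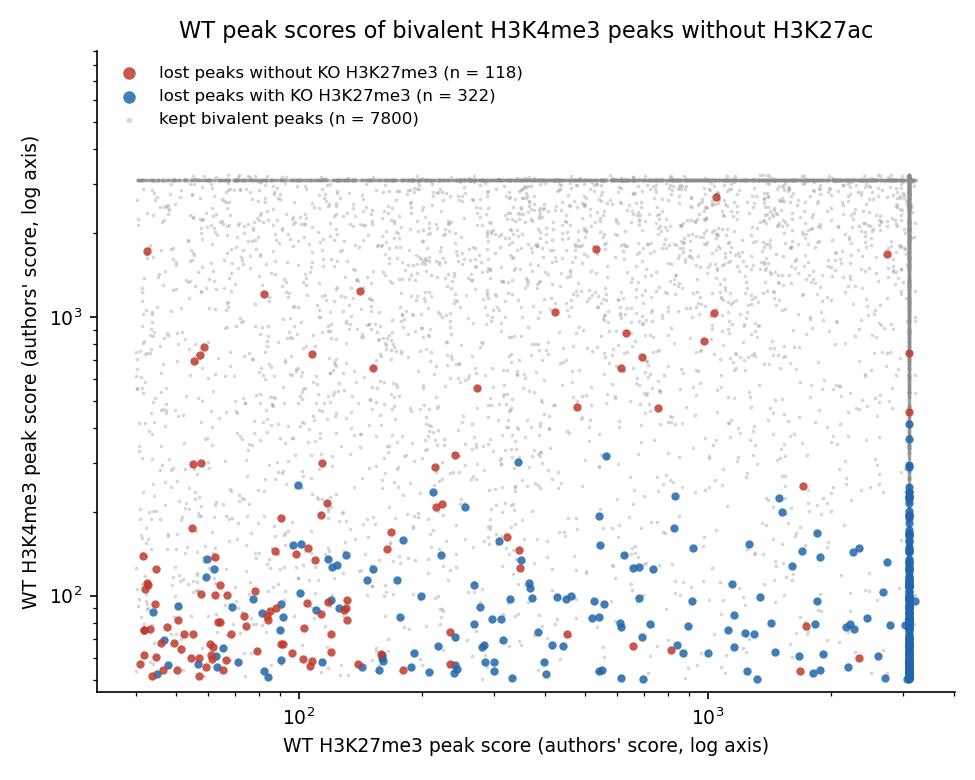
WT H3K4me3 score (y axis) against the score of the overlapping WT H3K27me3 peak (x axis), both the authors' scores on log axes, 1 point per peak, for 118 lost peaks without KO H3K27me3 (red), 322 lost peaks with it (blue) and 7800 kept bivalent peaks (grey). Blue points stay at or below an H3K4me3 score of 414 and gather at the H3K27me3 ceiling of 3100, while the points above 500 among lost peaks are red.

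Lost bivalent peaks kept H3K27me3 less often than kept bivalent peaks did. In KO cells 322 of 440 lost peaks (73.2%, 68.9 to 77.1) overlapped an H3K27me3 peak, against 89.6% (88.9 to 90.3) of kept peaks, a difference of -16.5 points (-20.8 to -12.5). The KO H3K27me3 list did not take part in choosing the 440. The difference remained within classes of the WT H3K27me3 score, at -12.1 points (-15.5 to -8.73). In the lowest class, up to a score of 128, 30.0% of lost and 48.3% of kept peaks had KO H3K27me3. In the next, up to 1019, the shares were 70.9% and 93.4%, and in the third, up to 3100, they were 84.4% and 99.7%. In the highest class they were 98.9% and 99.8%, so that nearly all regions with the strongest H3K27me3 had a KO peak of that mark, whether H3K4me3 was lost or kept. By classes of WT H3K4me3 score, chosen after the values were seen, the intervals of lost and kept peaks overlapped below 200. The shares were 75.4% and 83.2% at 50 to 75, 79.6% and 87.4% at 75 to 100, and 78.9% and 81.3% at 100 to 200. At 200 to 500 they were 62.5% (45.3 to 77.1) and 84.8% (82.0 to 87.3).

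The strongest H3K4me3 peaks among the lost ones had no KO H3K27me3 peak either. At WT H3K4me3 scores of 500 or more, 0 of 19 lost peaks overlapped a KO H3K27me3 peak, against 5872 of 6464 kept peaks (90.8%). Below 500 the counts were 322 of 421 lost and 1120 of 1336 kept peaks, a difference of -7.35 points (-12.0 to -3.02). This score limit was chosen after the values were seen and lies above 414, the highest score of a lost peak with KO H3K27me3, so the 0 follows from it and these counts are a description. Of the 19 peaks, 18 lay in a WT H3K27me3 peak that overlapped no KO H3K27me3 peak along its whole length, and 16 were the only H3K4me3 peak in it. Their WT H3K27me3 scores ran between 42.5 and 3100 with a median of 422, and they lay on 11 chromosomes. In the mirror class 1 KO peak reached 500, and it lacked WT H3K27me3.

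**Figure D3:**
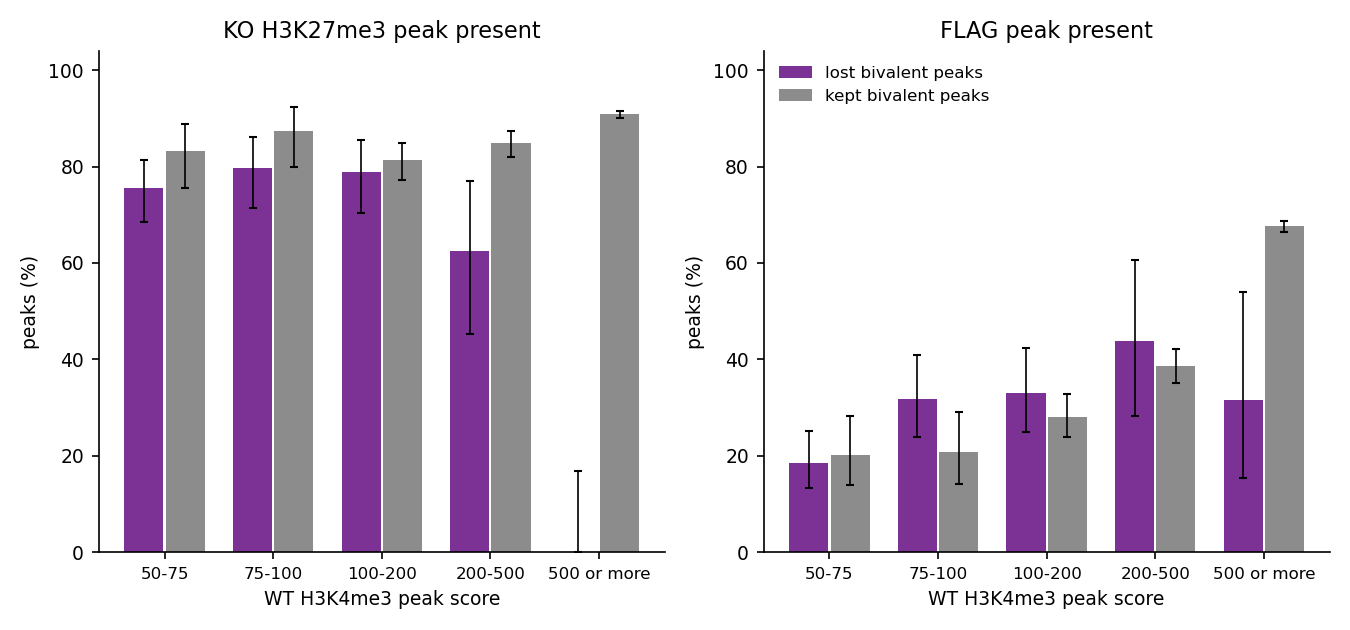
Share of peaks with a KO H3K27me3 peak (left) and with a FLAG peak (right), in percent, by class of WT H3K4me3 score, for lost bivalent peaks (purple) and kept bivalent peaks (grey); error bars are Wilson 95% intervals. At scores of 500 or more 0 of 19 lost peaks had KO H3K27me3, against 90.8% of kept peaks. That limit was chosen after the values were seen and lies above 414, the highest score of a lost peak with KO H3K27me3, so the 0 follows from it. Below 200 the intervals of the KO H3K27me3 shares of both kinds of peak overlap in every class, and below 500 those of the FLAG shares do.

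The largest WT H3K4me3 score, 2687, belonged to chr1:155263852-155265970. It lay inside a WT H3K27me3 peak of 3594 bp with a score of 1050, and had no KO peak of either mark and no FLAG peak. The nearest KO H3K4me3 peak was 11405 bp away. The nearest H3K4me3 peaks on both sides had scores of 3100 in KO and 3100 in WT.

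At chr7:64406927-64408715 the H3K4me3 score was 1755 and the H3K27me3 score 532.2 in WT, with neither mark in KO. A weak FLAG peak with a score of 52.7 lay there. No KO H3K4me3 peak lay within 38914 bp, and the nearest KO H3K27ac peak was 42237 bp away.

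The peak at chr5:74906019-74908369 had an H3K4me3 score of 1729 but hardly any H3K27me3, a peak of 852 bp with a score of 42.5 that covered 36.2% of it. It therefore met the bivalent rule narrowly. A second region of chromosome 5 differed from it. There, chr5:140870398-140872617 (score 1683) lay in an H3K27me3 peak of 5015 bp with a score of 2738, and the same H3K27me3 peak held a kept H3K4me3 peak. A KO H3K4me3 peak lay 983 bp from the lost one, and another WT H3K4me3 peak 738 bp from it.

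The remaining 6 of the 10 largest scores without KO H3K27me3 lay between 823 and 1237, each the only H3K4me3 peak of its H3K27me3 peak. At chr13:91826573-91828411 (H3K4me3 score 1237, H3K27me3 score 141) the nearest KO H3K4me3 peak was 169851 bp away, and at chr10:93804493-93806260 (1208 and 82.3) it was 118901 bp away. At chr16:23765071-23767107 (1040 and 422), chr1:223565757-223567668 (872 and 632) and chr2:241458613-241460308 (823 and 981) a FLAG peak was present, with FLAG scores of 90.1, 62.0 and 97.6. At chr14:20902578-20904294 (1029 and 1036) there was none. No peak of any KO list, FLAG included, lay within 5 kb of 7 of the 19 strongest lost peaks and of 61 of the 118 peaks without KO H3K27me3. The 118 were chosen for overlapping no KO H3K4me3 and no KO H3K27me3 peak, so these counts follow in part from the choice. No such share was computed for kept bivalent peaks or for all WT H3K4me3 peaks. Whether the DNA of each region without a KO peak within 5 kb is intact in the KO line was not tested.

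Among lost peaks with KO H3K27me3 the largest H3K4me3 score was 414, at chr4:8893381-8896543. The KO H3K27me3 peak over it was 13133 bp wide and the WT one 13427 bp, both with a score of 3100. A FLAG peak with a score of 291 covered it, and the nearest KO H3K4me3 peak was 18740 bp away.

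At chr21:38063738-38066331 (H3K4me3 score 364) the KO H3K27me3 peak was 25724 bp wide and the WT one 25879 bp. The WT H3K27me3 peak held 4 WT H3K4me3 peaks, of which 3 were kept. The lost peak at chr9:131126190-131128399 (290) shared an H3K27me3 peak of 10257 bp with 1 kept H3K4me3 peak, and the KO H3K27me3 peak there was 9191 bp wide. By contrast, chr19:51170310-51172445 (293) was alone in an H3K27me3 peak of 4797 bp, over which the KO peak spanned 3564 bp.

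Of the other 6 named by score in this class, 4 were the only H3K4me3 peak of their H3K27me3 peak: chr8:27449410-27450698 (316), chr21:45789772-45790877 (301), chr1:44970672-44974048 (249) and chr6:151074099-151075712 (236). Those at chr19:18713686-18715646 (245) and chr9:135461181-135463263 (236) lay in H3K27me3 peaks of 18880 bp and 19285 bp beside 2 kept H3K4me3 peaks each. The KO H3K4me3 peak nearest to them was 398 bp and 368 bp away. These peaks were placed in this class by their KO H3K27me3 peak, so its presence over them is no finding.

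**Figure D4:**
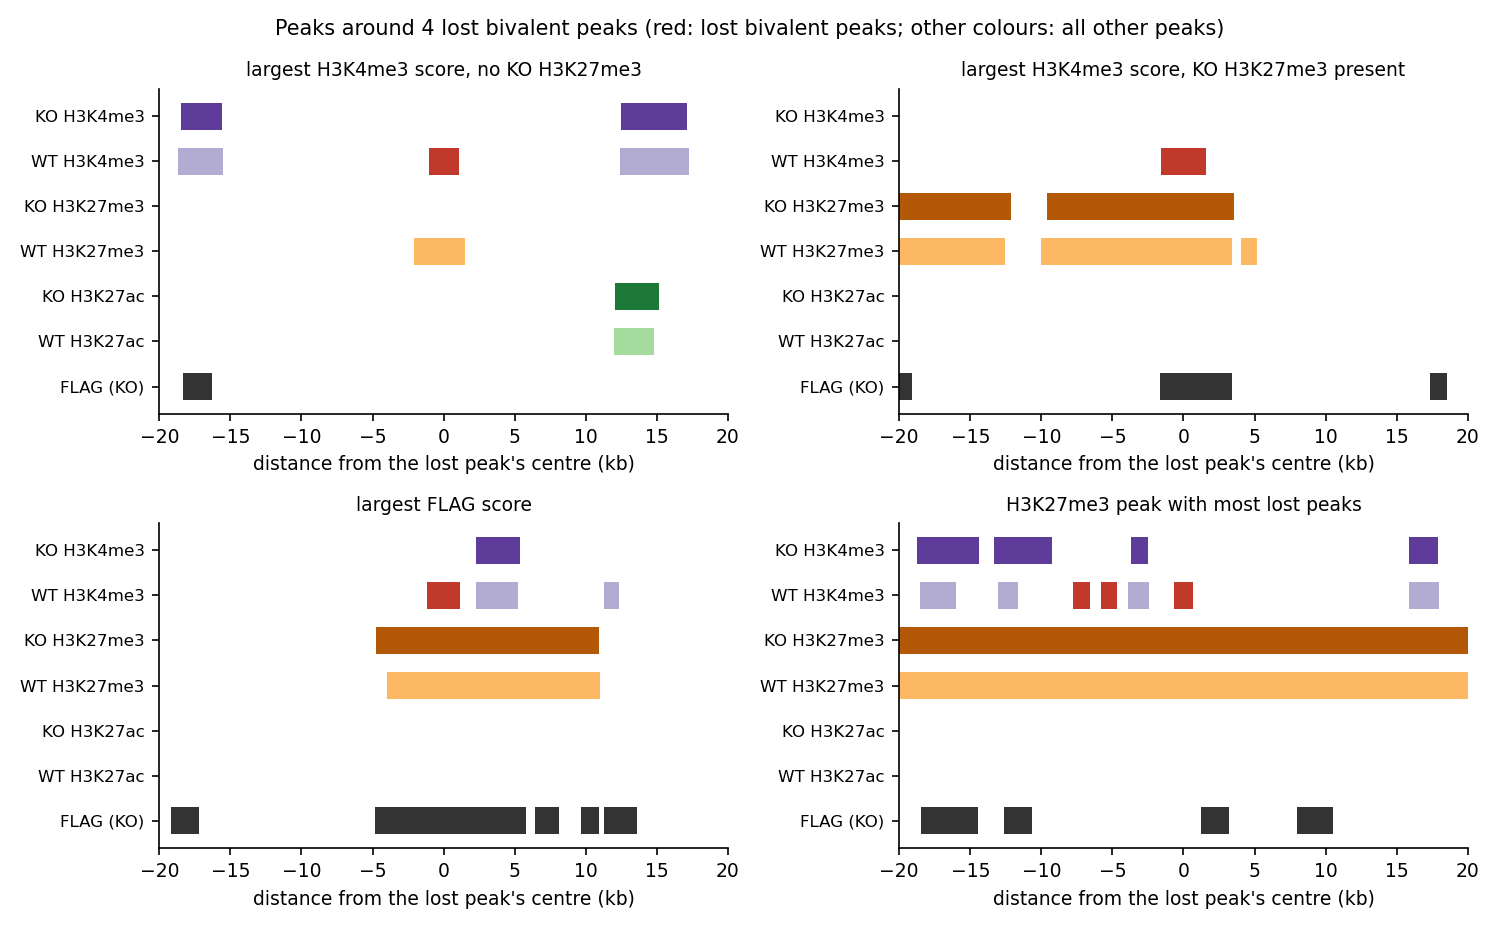
Peaks of the 7 lists within 20 kb of the centre of 4 lost bivalent peaks; rows are lists, bars are peaks to scale, red bars are lost bivalent peaks, and other colours are all other peaks. The region with the largest H3K4me3 score (2687, upper left) lacks both marks in KO between H3K4me3 peaks found in both genotypes, whereas in the other panels a KO H3K27me3 peak lies over the lost peak, as in WT.

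Some lost peaks were minor peaks beside a larger H3K4me3 peak that stayed. Of the 440, 182 (41.4%, 36.9 to 46.0) lay in a WT H3K27me3 peak that also held an H3K4me3 peak kept in KO, a share that was 22.6% (18.0 to 27.9) with peaks merged over 3 kb. This layout was found for 8 of 118 lost peaks without KO H3K27me3 (6.78%) and for 174 of 322 with it (54.0%), a difference of -47.3 points (-53.6 to -39.1). The H3K27me3 peaks of these classes differ in width, as given above, and the part of width in the difference was not tested. For the 180 lost peaks whose main H3K27me3 peak held a kept one, 177 had a lower score than the largest kept peak beside them, whose median score was 1935. Lost peaks were weaker than kept ones throughout, as given above, and the largest kept peak was taken. The count of 177 follows in large part from this and is a description. Of the 180, 128 had the lowest H3K4me3 score of their H3K27me3 peak. More than 1 WT H3K4me3 peak lay in the H3K27me3 peak of 184 lost peaks, against 1717 of 7800 kept peaks, a difference of 19.8 points (15.2 to 24.6). Of the 440, 65 shared their H3K27me3 peak with another lost peak, and these meet the measure by construction. The part of such sharing and of H3K27me3 peak width in the difference was not tested. Lying wholly inside the H3K27me3 peak did not set lost peaks apart beyond counting error, at 67.3% of lost and 64.1% of kept peaks (difference 3.14 points, -1.49 to 7.50).

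The 440 lost peaks lay in 399 WT H3K27me3 peaks, of which 375 held 1, 14 held 2 and 10 held 3 or more. The most, 8 lost peaks, lay at chr7:27124944-27270287, an H3K27me3 peak of 145344 bp that also held 10 kept H3K4me3 peaks. Their WT H3K4me3 scores lay between 50.7 and 97.9, and 1 of the 8 held a FLAG peak. KO H3K27me3 covered 144398 bp of it. The next were chr2:176928137-177060531 and chr10:102467233-102517889 with 4 lost peaks each, beside 14 and 6 kept ones, and both were covered by KO H3K27me3 over their whole length. These regions were picked after their counts were seen.

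Lost peaks with KO H3K27me3 lay nearer to a KO H3K4me3 peak by median than those without it, with overlapping ranges. The median distance was 22051.5 bp (quartiles 5206 and 48229.5) for the 118 lost peaks without KO H3K27me3 and 3856 bp (1218.5 and 21832) for the 322 with it, against 26683.5 bp for the 2146 WT-only H3K4me3 peaks with neither H3K27me3 nor H3K27ac. A KO H3K4me3 peak lay within 1 kb of 6.78% of the 118 (3.48 to 12.8), 21.4% of the 322 (17.3 to 26.2) and 4.29% of the 2146 (3.51 to 5.23), where the intervals of the 118 and the 2146 overlap. The median distance to another WT H3K4me3 peak also differed, at 18196.5 bp for the 118 and 3770.5 bp for the 322. The farthest lost peaks lay 519386 bp from a KO H3K4me3 peak at chr3:30125679-30127466, 420492 bp at chr7:136083385-136084752 and 415869 bp at chrX:120180673-120182240. The widest, at chr1:18977097-18980892 (3796 bp), chr4:4871278-4874882 (3605 bp) and chr4:174437210-174440698 (3489 bp), lay between 1804 and 2616 bp from one, each in an H3K27me3 peak of over 30 kb at the ceiling in both genotypes.

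**Figure D5:**
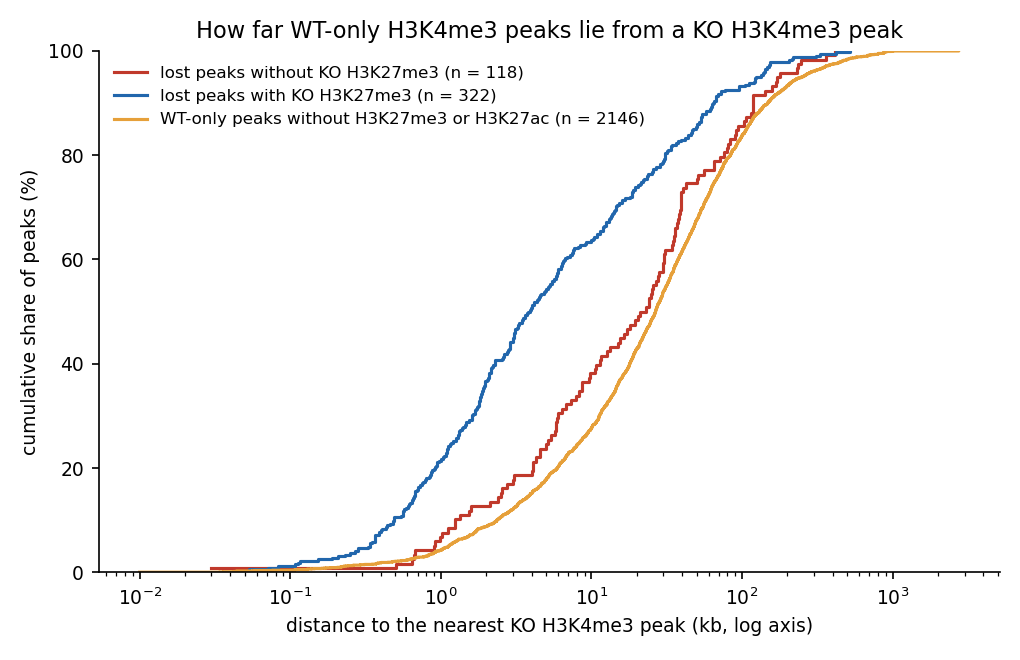
Cumulative share of peaks (y axis, percent) by distance to the nearest KO H3K4me3 peak (x axis, kb, log axis), for lost bivalent peaks without KO H3K27me3 (red), those with it (blue) and WT-only peaks with neither H3K27me3 nor H3K27ac (orange). The blue curve lies to the left, with 21.4% of peaks within 1 kb, against 6.78% for the red and 4.29% for the orange curve.

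No lost bivalent peak gained H3K27ac. Of the 440, 0 overlapped a KO H3K27ac peak (upper bound 0.866%), against 166 of 7800 kept bivalent peaks (2.13%), a difference of -2.13 points (-2.47 to -1.21). The lost peaks were weaker and narrower, as given above. No score or width classes were used for this difference, so the part of score and width in it was not tested. Among all WT H3K4me3 peaks without WT H3K27ac the share was 7.87%, and among the 2146 WT-only peaks with neither mark it was 8.57% (7.46 to 9.83). The nearest KO H3K27ac peak was 426 bp from a lost peak, and the median distance was 84219.5 bp.

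FLAG peaks were less frequent at lost than at kept bivalent peaks, but not beyond counting error once the WT score was taken into account. A FLAG peak lay at 123 of 440 lost peaks (28.0%, 24.0 to 32.3), against 61.6% of kept bivalent peaks (60.5 to 62.6) and 39.3% of all WT H3K4me3 peaks. The difference from kept peaks was -33.6 points (-37.7 to -29.1). Within 4 classes of peak width it was -11.0 points (-15.9 to -6.19), and within 4 classes of WT H3K4me3 score -4.51 points (-10.1 to 1.05). An interval that includes 0 does not show that the shares were equal, and with peaks up to 1 kb apart counted as overlapping the last value was -12.3, and with peaks merged over 3 kb -8.34, both with intervals below 0. In the 4 score classes behind -4.51, lowest first, 18.2%, 23.6%, 31.8% and 38.2% of lost peaks held a FLAG peak. For kept peaks the shares were 23.6%, 17.6%, 25.1% and 63.4%. The highest class is wide, and kept peaks in it are stronger than lost ones.

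In narrower score classes, chosen after the values were seen, the intervals of lost and kept peaks overlapped in every class below 500. The shares were 18.6% of lost and 20.2% of kept peaks at 50 to 75, 31.9% and 20.7% at 75 to 100, 33.0% and 28.1% at 100 to 200, and 43.8% and 38.5% at 200 to 500. At 500 or more 6 of 19 lost peaks held a FLAG peak (31.6%, 15.4 to 54.0), against 67.6% of kept ones.

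Compared with WT-only H3K4me3 peaks with neither H3K27me3 nor H3K27ac, lost bivalent peaks held FLAG peaks more often. The share was 8.25% (7.16 to 9.49) among these 2146 peaks, 19.7 points lower (15.5 to 24.2). The 2146 were weaker and narrower, with a median score of 68.9 against 84.0 and a median width of 1308 bp against 1400.5 bp. No score or width classes were used for this difference. Among the lost bivalent peaks, 26 of 118 without KO H3K27me3 (22.0%) and 97 of 322 with it (30.1%) carried one, which differ by -8.09 points (-16.5 to 1.47). This value depended on the processing: it was -12.9 with lists of equal length and -11.0 with a gap of 1 kb, both with intervals below 0. It was -2.29 (-11.9 to 8.40) with peaks merged over 3 kb and -4.87 (-13.3 to 4.69) with 1 lost peak per H3K27me3 peak. FLAG peaks followed the layout of the Polycomb peak: 73 of 182 lost peaks beside a kept H3K4me3 peak held one (40.1%), against 50 of the 258 others (19.4%), a difference of 20.7 points (12.1 to 29.2). The H3K27me3 peaks of these groups had median widths of 23988.5 bp and 2695.5 bp, and whether width accounts for the difference was not tested.

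The FLAG peaks at lost bivalent peaks were weaker by median than those at kept ones, with a score of 105 (quartiles 71.5 and 207) against 148 (87.3 and 258). At all WT H3K4me3 peaks with a FLAG peak the median was 131. Those of the 5 largest FLAG scores all kept H3K27me3 at 3100 in both genotypes. The highest, 973, lay at chr4:1395980-1398300, whose WT H3K4me3 score was 144 and which had a kept H3K4me3 peak in the same H3K27me3 peak. The next, 829, lay at chr9:139096293-139097518 (H3K4me3 score 108), and a FLAG score of 711 lay at chr10:102987995-102990077 (59.9). The last pair, chr7:156795529-156797427 (190) and chr7:156797583-156799104 (51.2), were neighbours under 1 FLAG peak with a score of 616. In each of these 5 regions the H3K27me3 peak also held kept H3K4me3 peaks.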

How the data were processed

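The data are peak lists from ChIP-seq of formaldehyde-fixed, sonicated chromatin, per the labels' protocols. The submitters' processing notes name Bowtie2, Picard and hg19, with no version, and the deposited peak names begin with MACS. Each deposited list gives the authors' peak score, whose scale no source used here states. The lists named for a p-value threshold begin at a score of 40 and the H3K4me3 and FLAG lists at 50, so peak numbers are not comparable between marks. Depth is unknown.

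Groups came from the sample titles. Overlaps of at least 1 bp were computed with bedtools 2.31.1, and tables with python 3.11.15, numpy 2.4.6 and pandas 2.3.3. Plots used matplotlib 3.10.9. Differences within classes weighted the kept peaks to 4 classes cut at the quartiles of the lost peaks, with a normal interval. The steps were tested on simulated data. Distances are the bases between peak edges. The regions, classes and lists were chosen with earlier results of these data known. Named regions were the 10 largest WT H3K4me3 scores of each class, the 5 largest FLAG scores, the 3 widest, and the 3 nearest to and 3 farthest from a KO H3K4me3 peak, with the 3 kept peaks of smallest overlap. A rule for the 5 largest KO H3K27ac scores named none. Alternatives were another overlap (50% of the smaller peak), a 1 kb gap, lists of equal length, the upper 50% of the WT lists by score, peaks merged over 3 kb, autosomes alone, and WT H3K27ac allowed. Gene groups and DNA sequence were not analysed here, since no hg19 genome or annotation was used.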

Additional observations from a re-analysis of the deposited data

How the results depend on the processing

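Of 65 alternative values for 11 results, 56 kept their direction and their side of 0, or stayed within 1.5 times or the interval of the value reported. Merging peaks up to 3 kb apart gave 270 lost bivalent peaks, of which 64.8% kept H3K27me3 and 22.6% lay beside a kept H3K4me3 peak. Merging joins a minor peak to its neighbour by construction. It also moved the FLAG difference within score classes to -8.34 points, with an interval below 0. A gap of 1 kb gave -12.3 points for it, -11.0 points for the FLAG difference between lost peaks without and with KO H3K27me3, and 35.2% beside a kept H3K4me3 peak. Lists of equal length gave -12.9 points for the FLAG difference between lost peaks without and with KO H3K27me3, against -2.29 with merged peaks and -4.87 with 1 peak per H3K27me3 peak, whose intervals include 0. The cause of these shifts was not tested. The upper 50% of the WT lists by score left 1 lost bivalent peak, so no share or difference, which needed at least 10 of them, was computed there.

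Keeping 1 peak per H3K27me3 peak, and 2 kinds of class together, were added after the data were seen. With 1 peak per H3K27me3 peak, the difference in KO H3K27me3 was -17.7 points, and -13.2 points within classes of the H3K27me3 score. Adding classes of H3K4me3 score gave -11.4 points (-15.8 to -7.01). The FLAG difference within score and width classes was -1.65 points (-7.33 to 4.02). The highest score class is wide, and kept peaks in it are stronger than lost ones.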

Other observations

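Lost bivalent peaks were spread over the genome. Among autosomes the share of bivalent peaks lost lay between 2.49% (10 of 402, 1.36 to 4.52) on chromosome 3 and 8.29% (15 of 181, 5.09 to 13.2) on chromosome 13. The split by KO H3K27me3 rested on few peaks per chromosome, so its counting error is large. No KO H3K27me3 was found at 118 of all 440 lost peaks. Among chromosomes picked after the counts were seen, it was missing at 8 of 17 on chromosome 16 and 4 of 6 on chromosome 22. It was missing at 1 of 22 on chromosome 10, 1 of 16 on chromosome 4 and 0 of 6 on chromosome 21. These are counts of peaks, and no test across chromosomes was made.

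The 122 KO H3K4me3 peaks of the mirror class, bivalent in KO and without a WT H3K4me3 peak, were weak as well, with a median KO score of 71.1. WT H3K27me3 was present at 101 of them (82.8%, 75.1 to 88.5), and 0 overlapped a WT H3K27ac peak. A FLAG peak lay at 18 (14.8%, 9.54 to 22.1), against 28.0% of the 440 lost bivalent peaks. No score or width classes were used for this comparison, so the part of score and width in it was not tested.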
